A study of Homo sapiens with 6 samples.

Results

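The genes described here make cholesterol, move it into, within and out of cells, and control its supply through the sterol regulatory element binding proteins (SREBPs). The 34 genes are a list of symbols that runs from the first condensation of acetyl units to the last reduction of the sterol ring, to transport and storage, and no measured value enters the rule. The genes were, however, chosen with earlier results of these data known. They do not cover every step of the pathway. Every probe set whose platform annotation includes one of them was taken, which gave 72 probe sets for 33 of the 34 genes. FDFT1, the squalene synthase, was not analysed here. For 32 genes at least 1 probe set names that gene alone, and CYP51A1 is read by 2 probe sets that also name LRRD1. The whole table holds 19775 genes that could be measured in the same way.

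All arrays carry RNA of MDA-MB-436 cells, an established line from a human breast tumour, grown in both groups in RPMI-1640 medium with FCS, PEST and insulin. One group is 3 arrays of cells labelled wild type. The other is 3 arrays of cells labelled NF1-C2S transfected, which the series record describes as stably carrying an expression plasmid with NF1-C2, one of the nuclear factor I-C proteins, which bind DNA and regulate transcription, and which the labels call overexpressing NF-C2. The comparison asks which transcripts differ between the line with and without that plasmid. No array of cells with an empty plasmid is named, and the sources used here do not say whether 1 clone or a pool was profiled. The 3 arrays of a group are not stated to be separate cultures, and p-values then measure only the spread among these arrays, which may be technical.

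Cells build cholesterol from acetyl-CoA through mevalonate, isoprenoids and squalene, and a series of enzymes then turns lanosterol into cholesterol. When sterol in the endoplasmic reticulum falls, the escort protein SCAP carries SREBP precursors to the Golgi, where proteases release their active part, and when sterol is plentiful INSIG proteins hold SCAP back. The released factors switch on most genes of synthesis and uptake, while an excess of oxidised sterols acts through liver X receptors to raise the exporters ABCA1 and ABCG1. Proliferating tumour cells need sterol for membranes and isoprenoids for anchoring signalling proteins.

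Values are log2 expression, where a difference of 1 is a doubling of signal, and changes are transfected minus wild type. Arrays correlated at 0.992 to 0.997 within groups and 0.971 to 0.976 between groups, and array medians lay between 4.8 and 4.86. The plasmid's gene does not check the labels: the 4 NFIC probe sets read -0.51 to 0.22 and none passed the test. Of 8 mammary epithelial markers, keratins KRT7, KRT8 and KRT18 were among those above the median of all probe sets (4.82), and KRT7 and KRT18 fell by 0.98 and 0.93 in the transfected cells (limma adjusted p = 6.95e-05 and 0.000136), while KRT8 read 0.05. KRT14 and KRT19 lay under that median in both groups, and KRT5 was close to it at 4.83 in wild type and 4.64 in transfected cells. EPCAM read -0.75 and did not pass (adjusted p = 0.0602). E-cadherin (CDH1) was near background at 3.42 and 3.44 and vimentin (VIM) fell from 13.54 to 13.01. Of 11 measured markers of leukocytes, endothelium, hepatocytes and red cells, 7 lay under that median in both groups, and the monocyte gene CD14 rose by 0.82. Whether such markers have any part in the results was not tested.

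More of the measured genes were higher than lower in the transfected cells. Of 32 genes, each read by its brightest probe set that names it alone, 16 rose (50%), 4 fell (12.5%) and 12 did not pass the test (limma, Benjamini-Hochberg adjusted p under 0.05). Over all 19775 genes, 31.9% passed, 15.0% higher and 16.9% lower. Among probe sets with a mean above the median of all probe sets, 16 of 31 rose (51.6%) and 5 fell (16.1%), against 24.0% higher and 26.2% lower of 12837 genes. In both readings the share that rose lay above that of all genes and the share that fell lay below it. Because the genes were chosen with earlier results of these data known, these shares are a description and not a test. The 3 arrays of one group lay wholly above or below the 3 of the other in 25 of the 32 genes, against 43.0% of all genes. The median change was 0.27, beside 0.00 for all genes tested. On each transfected array the median over the 32 genes lay above the wild type mean, by 0.24, 0.21 and 0.25 for replicates 1, 2 and 3. Most rises were modest: 11 of the 16 were under 1.6-fold, and 3 were over 2-fold.

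**Figure D1:**
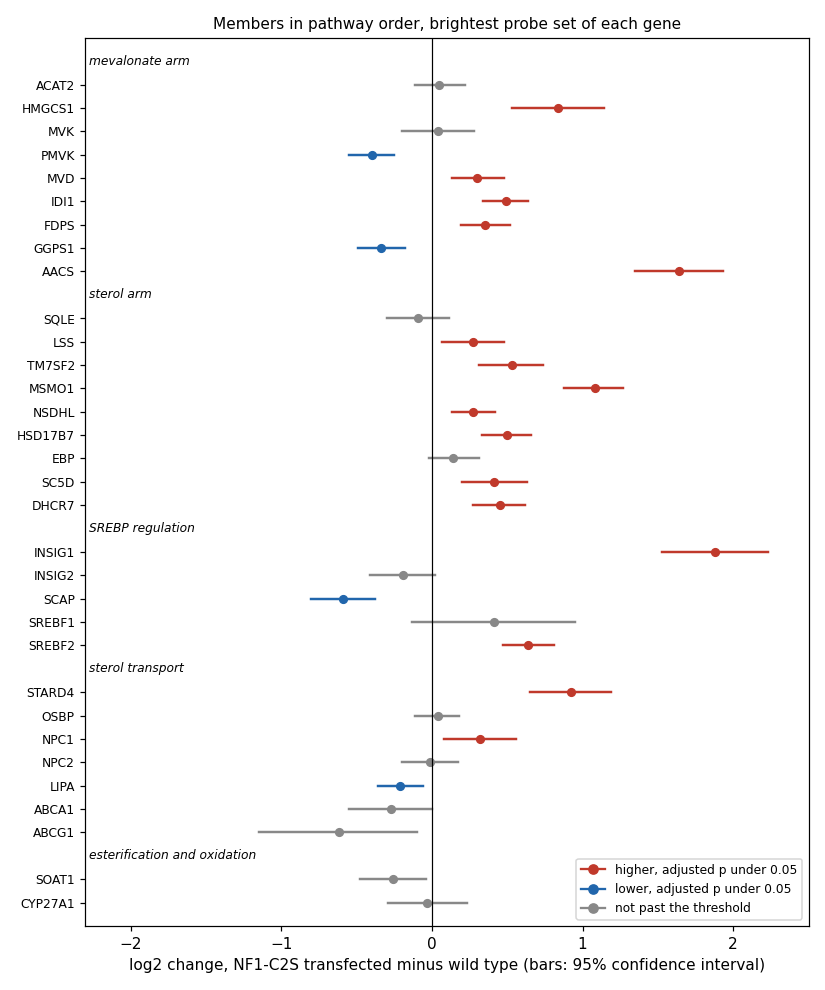
Log2 change of each of the 32 measured genes in pathway order, transfected minus wild type, with its 95% confidence interval from limma; red genes were higher and blue genes lower at an adjusted p under 0.05, and grey genes did not pass. Most enzymes of the sterol arm lie to the right of 0, and INSIG1 and AACS lie furthest right, at 1.88 and 1.64.

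INSIG1, which holds SCAP in the endoplasmic reticulum and is itself a classical SREBP target, had the largest rise. It read 6.41, 6.85 and 7.0 in the wild type arrays and 8.54, 8.73 and 8.62 in the transfected arrays. Wild type replicate 1 was the lowest, and every transfected array was at least 1.54 above every wild type array. The rise was 1.88 (SE 0.15, limma adjusted p = 8.18e-05), or 3.68-fold. All 3 of its probe sets rose, by 1.42, 1.51 and 1.88. AACS activates acetoacetate in the cytosol so that its carbon can enter lipid synthesis. It read 7.69, 8.12 and 8.08 in wild type arrays against 9.58, 9.68 and 9.55 in transfected arrays. The groups were 1.43 apart at their nearest, and the rise was 1.64 (SE 0.12, adjusted p = 6.02e-05), or 3.12-fold, on its 1 probe set.

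MSMO1 removes methyl groups from the sterol ring and needs molecular oxygen. Its arrays read 8.34, 8.52 and 8.39 in wild type cells and 9.39, 9.52 and 9.57 in transfected cells. The 2 groups were about equally tight, and the rise was 1.08 (SE 0.08, limma adjusted p = 7.10e-05), or 2.11-fold. STARD4 carries cholesterol between membranes through the cytosol. It stood at 5.74, 5.48 and 5.57 in wild type arrays and 6.30, 6.65 and 6.60 in transfected arrays. Transfected replicate 1 was the nearest to the wild type arrays, and the rise was 0.92 (SE 0.12, adjusted p = 0.000728), or 1.89-fold.

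**Figure D2:**
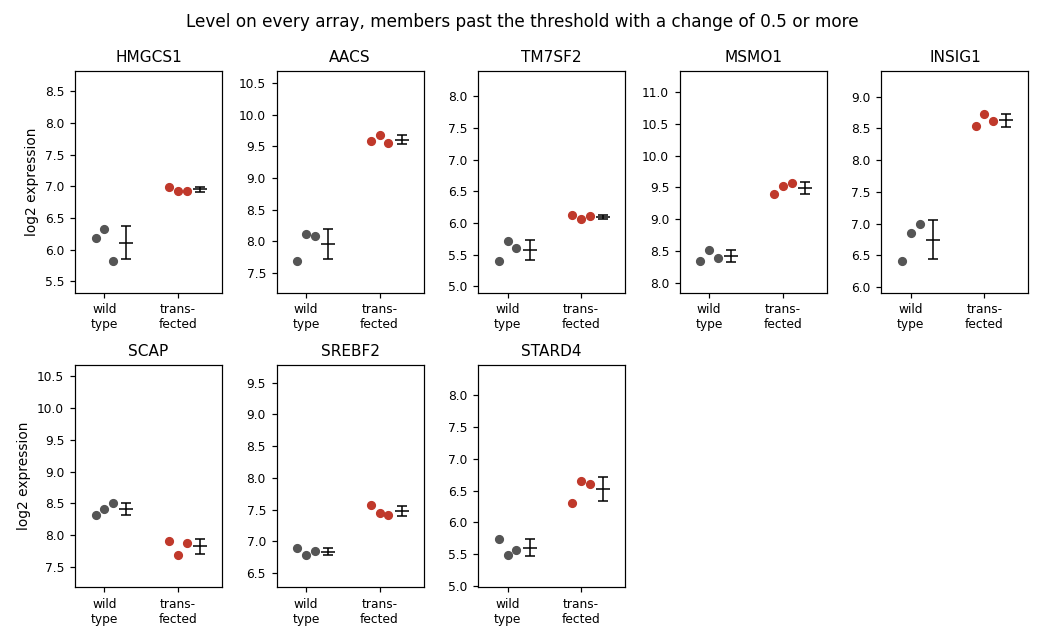
Log2 expression on every array for the 8 genes past the threshold with a change of at least 0.5 in size (dots; the 3 replicates run left to right), with the mean and SD of each group (bars, n = 3); each panel spans 3.5 log2 units. The groups do not overlap in any panel, 7 genes are higher in the transfected arrays, and SCAP is lower.

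The bases before the start sites of INSIG1, AACS, MSMO1 and STARD4, the 4 genes with the largest rises, are shown because the pathway is known for shared control at its promoters, and that of SREBF2 because it alone holds an exact sterol regulatory element core. SREBF2 was added after its match was seen. Each runs 5′ to 3′ on the gene's strand over the 250 bases before the start in RefSeq (GRCh38.p14). Capitals mark matches on either strand to TCACNCCAC (sterol regulatory element core), CCAAT (bound by NF-Y, a partner of SREBPs), GGGCGG (bound by Sp1) or TTGGCA (half-site of nuclear factor I). Matches may overlap each other, as CCAAT on one strand and TTGGCA on the other can.
INSIG1 chr7:155297628-155297877 (+): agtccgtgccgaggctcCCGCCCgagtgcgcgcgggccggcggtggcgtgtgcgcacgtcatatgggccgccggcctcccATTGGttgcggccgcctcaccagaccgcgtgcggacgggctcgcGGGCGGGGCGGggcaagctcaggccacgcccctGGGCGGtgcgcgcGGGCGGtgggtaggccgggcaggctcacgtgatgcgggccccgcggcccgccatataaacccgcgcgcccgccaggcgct
AACS chr12:125065185-125065434 (+): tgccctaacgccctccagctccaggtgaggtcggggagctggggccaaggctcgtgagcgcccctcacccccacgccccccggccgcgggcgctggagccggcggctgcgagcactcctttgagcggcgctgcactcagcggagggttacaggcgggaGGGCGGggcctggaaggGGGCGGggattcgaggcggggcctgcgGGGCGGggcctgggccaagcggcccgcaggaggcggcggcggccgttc
MSMO1 chr4:165327419-165327668 (+): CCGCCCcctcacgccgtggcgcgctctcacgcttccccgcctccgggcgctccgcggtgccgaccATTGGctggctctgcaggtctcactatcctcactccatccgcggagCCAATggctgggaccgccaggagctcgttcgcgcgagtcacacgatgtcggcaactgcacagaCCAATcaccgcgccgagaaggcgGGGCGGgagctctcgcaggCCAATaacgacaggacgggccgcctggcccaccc
STARD4 chr5:111512536-111512785 (-): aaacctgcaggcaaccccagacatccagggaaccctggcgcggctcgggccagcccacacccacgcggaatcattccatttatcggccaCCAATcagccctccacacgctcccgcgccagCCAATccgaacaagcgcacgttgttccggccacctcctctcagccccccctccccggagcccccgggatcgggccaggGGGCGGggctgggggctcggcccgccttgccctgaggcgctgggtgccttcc
SREBF2 chr22:41832855-41833104 (+): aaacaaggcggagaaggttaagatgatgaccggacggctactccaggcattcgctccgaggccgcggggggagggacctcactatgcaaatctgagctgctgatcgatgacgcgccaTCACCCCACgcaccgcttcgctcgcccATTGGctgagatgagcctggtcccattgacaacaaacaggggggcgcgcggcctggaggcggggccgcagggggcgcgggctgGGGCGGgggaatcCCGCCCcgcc

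MSMO1 has 4 CCAAT matches, STARD4 has 2, INSIG1 and SREBF2 have 1 each and AACS has none. All 5 hold GGGCGG, from 1 match in STARD4 to 5 in INSIG1, and none holds TTGGCA. The RefSeq table had windows for 30 of the 34 genes, 41 windows in all because some have several starts. CCAAT stood in 24 of these 41 windows (58.5%), against 32.4% of the 21490 windows of measured genes and 32.0% of all 35116 windows. Among genes that rose it was in 16 of 21 windows, and among measured genes that did not rise in 8 of 19. Counted by gene, these were 14 of 16 and 7 of 13. The same split by windows gave 19 of 21 and 17 of 19 for GGGCGG, and 2 of 21 and 2 of 19 for TTGGCA. For the sterol core it gave 1 of 21 and 0 of 19. No difference between genes that rose and the others was tested. GGGCGG was in 37 of 41 windows (90.2%), against 54.0% for measured genes and 42.6% for all. TTGGCA was in 4 of 41 (9.76%), against 9.57% and 10.8%. The sterol core was in 1 of 41, against 0.847% and 0.883%. A match to letters is a description and not a bound site.

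The mevalonate arm held 5 genes that rose (55.6%) and 2 that fell (22.2%) among its 9, with 2 that did not pass. Over all genes the shares were 15.0% higher and 16.9% lower. HMGCS1 joins acetyl-CoA to acetoacetyl-CoA and so starts the committed path to mevalonate. It read 6.18, 6.33 and 5.82 in wild type arrays and 6.99, 6.92 and 6.93 in transfected arrays. Wild type replicate 3 was the lowest, the transfected arrays lay within 0.07 of each other, and the rise was 0.84 (SE 0.13, limma adjusted p = 0.00197). Its other probe set, 221750_at, rose by 0.86. IDI1 sets the balance between the 2 five-carbon isoprenoid units. It rose from 9.27 ± 0.03 to 9.76 ± 0.03 (SD, n = 3 each), by 0.49 (adjusted p = 0.000822). The rise comes from 2 probe sets with the ending _x_at, a suffix for probes that may also match other transcripts. Its dimmer probe sets read -0.17 and -0.39, with p-values adjusted over all probe sets of 0.676 and 0.142, and the mean of the 4 read 0.11 (adjusted p = 0.469).

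FDPS, which builds the farnesyl chain shared by sterols and prenylated proteins, rose from 10.82 ± 0.07 to 11.17 ± 0.02, by 0.35 (limma adjusted p = 0.00577). The 20 measured genes nearest to it on chromosome 1, 10 on each side, had a median change of 0.31, and FDPS read 0.05 once that was subtracted (adjusted p = 0.65). MVD, which makes isopentenyl diphosphate, rose by 0.30 from 5.60 ± 0.08 (adjusted p = 0.0174). It no longer passed when replicate 2 of the wild type (adjusted p = 0.0601) or of the transfected group (0.057) was left out, nor with trend and robust variance together (0.064). With its neighbours' median of -0.29 subtracted it read 0.59 (adjusted p = 0.000914).

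The falls in this arm were in PMVK and GGPS1. PMVK adds the second phosphate to mevalonate and sits 1 step before MVD. It fell from 9.27 ± 0.02 to 8.87 ± 0.04, by 0.40 (SE 0.06, limma adjusted p = 0.00242). GGPS1 extends farnesyl to geranylgeranyl and so leads away from sterols. It fell from 9.89 ± 0.05 to 9.55 ± 0.03, by 0.34 (adjusted p = 0.00602), on both of its probe sets. The neighbours of these genes had median changes of 0.17 and 0.18, opposite in sign, and GGPS1 read -0.52 after subtraction. ACAT2, which makes acetoacetyl-CoA, read 0.05 (95% interval -0.11 to 0.22), and mevalonate kinase, MVK, read 0.04 (-0.20 to 0.28), with 0.04 to 0.22 over its 4 probe sets. Neither passed the test. ACAT2 read 0.26 (adjusted p = 0.0264) once its neighbours' median of -0.21 was subtracted.

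In the sterol arm, 7 of 9 measured genes rose and none fell (77.8% higher, where the background is 15.0%). Among genes with a mean above the median of all probe sets, the background is 24.0%. TM7SF2, one of a pair of reductases that act on the C14 double bond, read 5.40, 5.72 and 5.60 in wild type arrays and 6.12, 6.07 and 6.11 in transfected arrays. Its transfected arrays were closer together than its wild type arrays, and the rise was 0.53 (SE 0.09, limma adjusted p = 0.00372). HSD17B7, a ketoreductase of the demethylation complex, rose from 8.55 ± 0.05 to 9.05 ± 0.07, by 0.50 (adjusted p = 0.00132), on a probe set ending in _x_at. DHCR7, the last reductase of one branch, rose from 7.44 ± 0.07 to 7.89 ± 0.07, by 0.45 (adjusted p = 0.00287), and its second probe set rose by 0.51. SC5D, the desaturase just before it, rose from 7.88 ± 0.13 to 8.29 ± 0.10, by 0.41 (adjusted p = 0.0106), a call that ended without suffixed probe sets (0.39, adjusted p = 0.108). These 4 rises were all between 1.33-fold and 1.44-fold.

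Rises of similar or smaller size were seen at other steps. CYP51A1, which removes the C14 methyl group of lanosterol, rose by 0.42 on 202314_at and by 0.33 on 216607_s_at (limma p-values adjusted over all probe sets 0.00974 and 0.0231), both shared by annotation with LRRD1. NSDHL, a decarboxylating dehydrogenase of the demethylation complex, rose from 8.89 ± 0.03 to 9.17 ± 0.02, by 0.27 (adjusted p = 0.0124). Its second probe set, read when suffixed ones were left out, gave 0.16 (adjusted p = 0.154), and after its neighbours' median of 0.16 was subtracted it read 0.12 (adjusted p = 0.209). LSS, the cyclase that makes lanosterol, rose by 0.27 (adjusted p = 0.0468), close to the threshold. That call ended without wild type replicate 1 or 2 or any 1 transfected replicate (adjusted p from 0.0598 to 0.143) and under each of 3 other normalizations (0.0508 to 0.0544), as well as without suffixed probe sets (0.0603). The other LSS probe sets, 211018_at and 211019_s_at, read 0.38 and 0.06, with limma p-values adjusted over all probe sets of 0.00689 and 0.73. The first of them lay under the median of all probe sets in both groups.

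SQLE and EBP did not pass. SQLE, the squalene epoxidase and a known control point of the arm, read 9.70 ± 0.14 and 9.61 ± 0.05, a change of -0.09 (95% interval -0.30 to 0.11). Its 4 probe sets read -0.19 to 0.11, so none came near the rises of MSMO1 or TM7SF2. The neighbours of SQLE had a median of -0.25, and after subtraction it read 0.16 (limma adjusted p = 0.226). EBP, a sterol isomerase, read 0.14 (-0.02 to 0.31), with -0.05 to 0.25 over its 4 probe sets. On the 0.25 probe set, which is the brightest without suffixed probe sets, it passed when only such probe sets were tested (adjusted p = 0.0473).

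The SREBP machinery did not move as a block: INSIG1 and SREBF2 rose, SCAP fell, and SREBF1 and INSIG2 did not pass. SREBF2, the SREBP that mainly serves cholesterol genes, read 6.89, 6.78 and 6.85 in wild type arrays and 7.57, 7.45 and 7.42 in transfected arrays. The groups were 0.53 apart at their nearest, and the rise was 0.64 (SE 0.07, limma adjusted p = 0.000471). Its other probe sets read 0.26 and 0.08, with p-values adjusted over all probe sets of 0.0628 and 0.674. When transfected replicate 1 or 2 was left out, the first of these became the brightest and the change was 0.27 or 0.29 (adjusted p = 0.0683 and 0.0754). The mean of the 3 read 0.33 (adjusted p = 0.00589).

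SCAP arrays stood at 8.31, 8.41 and 8.50 in wild type cells and 7.90, 7.68 and 7.87 in transfected cells. Every transfected array was lower, and the fall was by 0.59 (SE 0.09, limma adjusted p = 0.00178). The 20 nearest measured genes on chromosome 3 had a median change of -0.57. After that was subtracted SCAP read -0.02 (adjusted p = 0.913). The median was subtracted as a fixed number, so this p-value leaves out the spread among the neighbours. INSIG2, the paralog of INSIG1, read 8.17 ± 0.08 and 7.97 ± 0.13, a change of -0.19 (95% interval -0.41 to 0.02). The interval of INSIG1, 1.53 to 2.23, lies wholly above it, although the difference between the paralogs was not tested.

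SREBF1, whose products mainly serve fatty acid genes, varied widely. It read 6.40, 6.05 and 6.96 in wild type arrays and 7.17, 6.74 and 6.73 in transfected arrays. Wild type replicate 3 overlapped the transfected arrays, and the change of 0.41 (95% interval -0.13 to 0.95) did not pass. The value moved with single arrays: it was 0.66 (limma adjusted p = 0.0421) without wild type replicate 3, 0.20 (0.581) without wild type replicate 2 and 0.27 (0.461) without transfected replicate 1. The second probe set read -0.03, and the mean of both read 0.19 (0.397).

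Of 7 transport genes, 2 rose (28.6%), 1 fell (14.3%) and 4 did not pass, where 15.0% of all genes rose and 16.9% fell. Beside STARD4, the late endosomal cholesterol exporter NPC1 rose from 9.27 ± 0.07 to 9.60 ± 0.18, by 0.32 (limma adjusted p = 0.0474). That call ended when any 1 of the 3 wild type arrays or transfected replicate 2 or 3 was left out (adjusted p from 0.062 to 0.133), under median centring (0.058) and without suffixed probe sets (0.0563). The other NPC1 probe sets lay under the median of all probe sets in both groups. They read 0.56 (limma p adjusted over all probe sets 0.00549), 0.19 (0.316) and -0.05 (0.864). NPC2, which hands cholesterol to NPC1, read -0.01 (95% interval -0.20 to 0.17). LIPA, the lysosomal lipase that frees cholesterol from its esters, fell by 0.21 from 8.32 ± 0.05 (adjusted p = 0.0434). Its second probe set, near background, read 0.14, and the mean of both read -0.04 (adjusted p = 0.804). The call was also lost with the replicate block (adjusted p = 0.0599) and without any 1 of the 6 arrays (0.0691 to 0.139). OSBP, which exchanges cholesterol for a phosphoinositide lipid at contact sites, read 0.04 (-0.11 to 0.18).

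The exporters lay lower but did not pass. ABCA1, which loads cholesterol onto apolipoproteins, read 8.70, 8.74 and 9.10 in wild type arrays and 8.55, 8.51 and 8.66 in transfected arrays. Wild type replicate 3 stood above the rest, and the change was -0.27 (95% interval -0.55 to 0.00, limma adjusted p = 0.128). Without that array it was -0.15 (adjusted p = 0.262). ABCG1, its partner in export, read 4.83, 4.62 and 5.56 against 4.47, 4.28 and 4.39, near background in the transfected cells. Its change was -0.62 (adjusted p = 0.0742). Without wild type replicate 3 it was -0.35 (adjusted p = 0.0547), without wild type replicate 2 it was -0.82 (0.0322), and without suffixed probe sets -0.15 (0.321). It passed with the replicate block (0.0413), with trend and robust variance (0.0391), with its probe sets averaged (0.0443) and with neighbours subtracted (0.0473). A second ABCG1 probe set, 204567_s_at, read 6.70 in wild type replicate 3 and 3.32 to 4.70 on the other arrays, a change of -1.73 (adjusted p over all probe sets 0.0585).

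SOAT1 esterifies cholesterol for storage, and its probe sets disagreed. The brightest, 221561_at, read 9.11, 9.34 and 9.25 in wild type arrays and 8.85, 8.98 and 9.09 in transfected arrays, a change of -0.26 (limma adjusted p = 0.0764, 0.0427 with the replicate block, and 0.0265 to 0.0484 under 4 other alternatives). On 228479_at the values were 7.69, 7.79 and 7.83 against 8.54, 8.59 and 8.65, a rise of 0.82 (p adjusted over all probe sets 0.000223). The groups did not overlap on either probe set, with opposite signs, and the third, 244661_at, read 0.19. The sources used here do not say which part of the message each reads, and no direction is given for the gene. CYP27A1, which makes 27-hydroxycholesterol in mitochondria, read -0.03 (95% interval -0.29 to 0.23).

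Over all 72 probe sets, 24 rose (33.3%), 4 fell (5.56%) and 44 did not pass. Over all 54613 probe sets of the array 22.2% passed, 10.8% higher and 11.4% lower. Of the 60 with a group above the median of all probe sets, 22 rose and 4 fell, and of the 12 dimmer ones 2 rose and none fell. No gene had probe sets past the threshold in both directions. Of the 30 probe sets ending in _s_at or _x_at, 15 rose, and of the 42 ending in _at, 9 did. Shares over all probe sets of the same level or ending are not given here. The splits by level and by ending are therefore not read as a result about these genes. With suffixed probe sets left out, 25 of the 34 genes could be measured, of which 7 rose (28.0%) and 2 fell (8%), against 13.3% and 14.1% of 16788 genes.

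**Figure D3:**
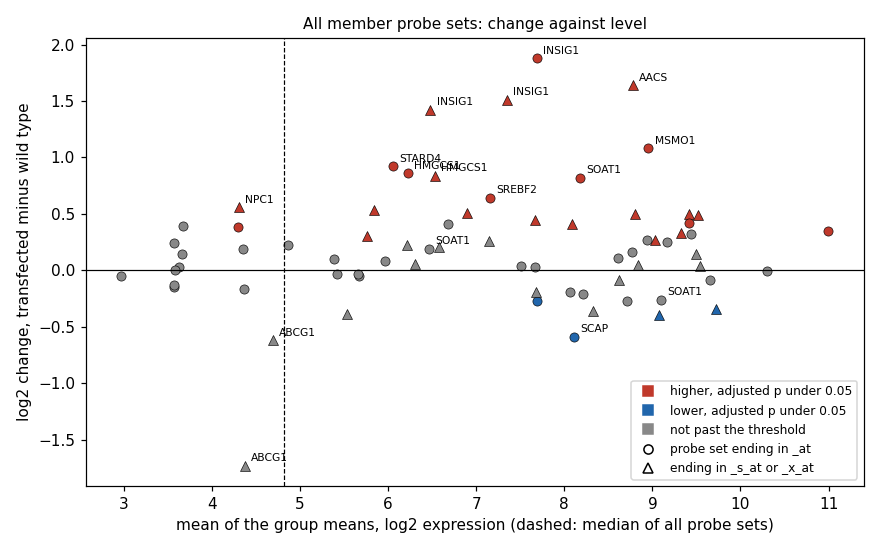
Log2 change (transfected minus wild type) of all 72 probe sets against the mean of their 2 group means in log2 expression; the dashed line is the median of all probe sets, circles end in _at and triangles in _s_at or _x_at, red passed higher, blue lower and grey did not pass. The 3 INSIG1 probe sets lie together between 1.42 and 1.88, while those of SOAT1 fall on both sides of 0.

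Other genes of sterol, isoprenoid and fatty acid metabolism were read from 5 lists of 64 genes, 58 of them measured. In these, 12 rose (20.7%), 13 fell (22.4%) and 33 did not pass, with a median of -0.05. These shares are near the background of 15.0% and 16.9%. Of 9 genes of SREBP processing and sterol-regulated degradation, 2 rose (22.2%) and 5 fell (55.6%). The latter include MBTPS2, the protease that makes the second cut in SREBPs (log2 change -0.50, limma adjusted p = 0.00176), the endoplasmic reticulum ubiquitin ligases RNF145 (-0.89, 0.000158) and RNF139 (-0.57, 0.000436), and ERLIN2, an adaptor for sterol-dependent degradation (-0.90, 0.00261). ERLIN2 read -0.08 (adjusted p = 0.703) without suffixed probe sets, and the probe sets of RNF145 averaged -0.46 (0.00826). The neighbours of RNF139 had a median change of -0.27, and it read -0.30 after subtraction (adjusted p = 0.00974).

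Of 14 genes on the isoprenoid branches none rose, against 15.0% of all genes, and 3 fell (21.4%), against 16.9%. They were PDSS2, which makes the side chain of coenzyme Q (-0.88, limma adjusted p = 0.000446), ICMT, which methylates prenylated proteins (-0.40, 0.00416), and RABGGTB, which prenylates Rab proteins (-0.25, 0.0477). For the mean of probe sets PDSS2 read -0.42 (adjusted p = 0.00186) and ICMT -0.10 (0.416), and ICMT read 0.10 (0.707) without suffixed ones. RABGGTB lost its call without any 1 array except wild type replicate 3 (adjusted p from 0.0638 to 0.144). Among 19 lipoprotein receptors and sterol transfer proteins, 6 rose (31.6%) and 4 fell (21.1%), beside the same 15.0% and 16.9%. OSBPL8, a lipid exchanger at the plasma membrane, rose by 0.91 (5.31e-05), and the sterol transfer genes GRAMD1C and GRAMD1B by 0.91 (0.00334, from a level near background) and 0.61 (0.00707). OSBPL10 fell by 2.03 (4.24e-05) on 219073_s_at but read 0.13 without suffixed probe sets, and its probe sets averaged together read -0.55.

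Of 7 genes of parallel sterol enzymes and oxysterol synthesis, 1 rose (14.3%, against 15.0% of all genes). It was LBR, which carries the same C14 reductase activity as TM7SF2, with 10.12, 10.16 and 10.06 in wild type arrays and 11.21, 11.25 and 11.09 in transfected arrays. The rise was 1.07 (limma adjusted p = 4.41e-05), about as large as that of MSMO1. Among 9 fatty acid genes under SREBP control, 3 rose (33.3%) and 1 fell (11.1%), against 15.0% and 16.9% of all genes. The change was positive in 7 of the 9, with a median of 0.21. LPIN1, which makes diacylglycerol, rose by 1.85 (1.91e-05), the elongase ELOVL6 by 0.37 (0.00896) and malic enzyme ME1 by 0.21 (0.042). The fatty acid synthase FASN fell by 0.35 (0.00474), but its probe sets averaged together read -0.11 (adjusted p = 0.383), and it read -0.17 after its neighbours' median was subtracted (0.0927). The call of ME1 ended with the replicate block (adjusted p = 0.0654) and without any 1 of the 6 arrays (0.0662 to 0.135), and without suffixed probe sets it read 0.35 (0.0151).

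**Figure D4:**
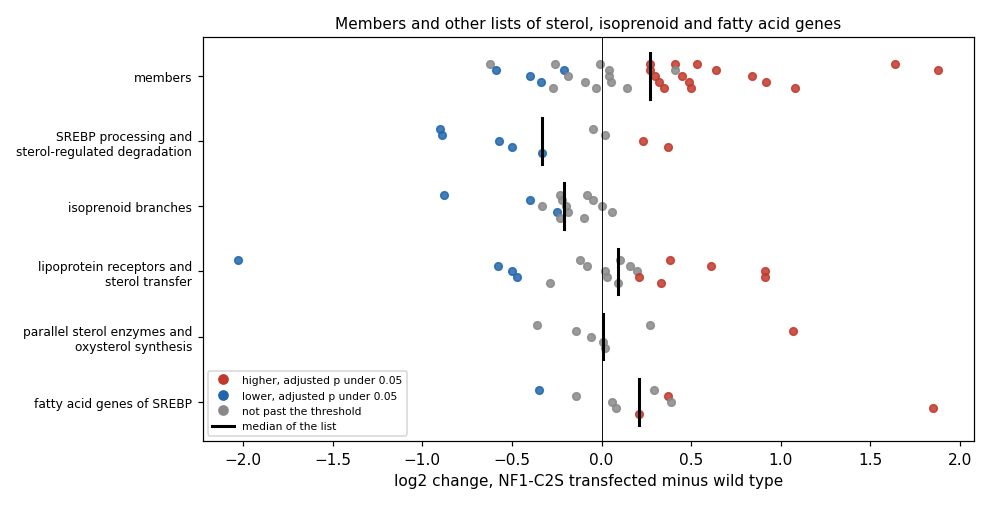
Log2 change (transfected minus wild type) of each measured gene, for the 32 sterol genes at the top and the 5 other lists below; red genes were higher and blue lower at a limma adjusted p under 0.05, grey did not pass, vertical spread within a row has no meaning, and black bars are medians. The sterol genes have a median of 0.27, and the isoprenoid branches, at -0.21, hold no gene past the threshold on the higher side.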

How the data were processed

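RNA of 6 samples was measured on Affymetrix arrays, and the authors deposited log2 expression values per probe set, made with RMA per the submitters' processing notes. RMA corrects background, normalizes arrays and makes differences between dim values smaller. The sources used here name no version of it. Arrays have no read depth, and precision is limited by their number. The SD within a group had a median of 0.110 in wild type and 0.119 in transfected arrays. Without 62 controls the table held 54613 probe sets. The platform annotation gave 41091 of these 1 gene, 1801 several and 11721 none, and 41037 of the first matched the RefSeq table of GRCh38.p14.

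A gene was its brightest probe set naming that gene alone. Groups from the labels were compared with limma 3.58.1 in R 4.3.3 (two-sided, empirical Bayes, Benjamini-Hochberg over 19775 genes; other probe sets over all 54613), which was tested on simulated data. The genes and lists were chosen with earlier results of these data known, and the rule for named genes was: every measured member, array values for members past the threshold with a change of at least 0.5, and up to 4 genes of each further list. Array values of SOAT1, ABCA1, ABCG1, SREBF1 and LBR were added after they were seen.

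Arrays with the same replicate number deviated together from their group means (correlations 0.398, 0.238 and 0.140), so an alternative fit took the numbers to pair them. The main counts and p-values come from the fit without pairs. The fit with the number as a block is given where it changes a call. Wild type replicate 2 correlated about as well with transfected replicate 3 (0.142), and what the number stands for is not stated. Other alternatives were normalization, array weights, the variance prior, a level filter, the probe set choice, subtraction of the median of 10 neighbours on each side, and leaving out each array. The neighbours' median was subtracted as a fixed number, so p-values after subtraction leave out the spread among the neighbours.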

Additional observations from a re-analysis of the deposited data

How the results depend on the processing

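Of the 20 sterol genes past the threshold, 10 kept their call under each of the alternatives that measured them (AACS, DHCR7, GGPS1, HMGCS1, HSD17B7, INSIG1, MSMO1, PMVK, STARD4 and TM7SF2), and 19 kept their direction, IDI1 being the exception. AACS, DHCR7, HSD17B7, PMVK and TM7SF2 have only suffixed probe sets, so leaving those out could not test their calls. For genes with 1 probe set, such as AACS, MSMO1 and STARD4, averaging probe sets leaves the change as it was. The count of 16 higher and 4 lower stayed within 1.5 times except without suffixed probe sets, where fewer genes could be measured (25): there 7 were higher and 2 lower, 9 in all, and of the other lists 16 passed, 5 of them lower. The replicate block called 21 of the sterol genes in place of 20; it changed the calls of LIPA, ABCG1, SOAT1 and ME1 and no other call among the genes named. With trend and robust variance, 7 member probe sets were lower in place of 4. The median change of 0.27 was 0.21 for the mean of probe sets, 0.16 without suffixed probe sets and 0.21 with neighbours subtracted, and ranged from 0.21 to 0.30 when 1 array was left out.

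Signs turned in these cases; no member value was past the threshold after turning. MVK ranged from -0.06 to 0.11 when 1 array was left out (-0.06 without wild type replicate 2 and -0.005 without transfected replicate 1). IDI1 read -0.17, ICMT 0.10 and OSBPL10 0.13 without suffixed probe sets. With neighbours subtracted SQLE read 0.16, OSBP -0.01 and CYP27A1 0.02. NPC2 read 0.01 with quantile normalization, 0.01 without transfected replicate 1 and 0.03 without transfected replicate 2, with a range of -0.08 to 0.03. SOAT1 read 0.25 for the mean of its probe sets. CYP27A1 read 0.09 without wild type replicate 1 and 0.0019 without transfected replicate 2, with a range of -0.1 to 0.09. The cause of these differences was not tested. RMA makes differences between dim values smaller. Whether it did so for dim probe sets such as those of ABCG1 in the transfected cells was not tested.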

Other observations

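Some genes known as targets of liver X receptors read higher on replicate 3 than on the other wild type arrays, a pattern noticed in the values of SREBF1, ABCA1 and ABCG1. A list of 9 such genes was then written with part of the values already seen, so it has no test. The stearoyl-CoA desaturase SCD read 8.89, 8.92 and 9.76 in wild type arrays and 9.63, 9.53 and 9.57 in transfected arrays. MYLIP, a ligase that degrades lipoprotein receptors, read 5.66, 5.59 and 6.10 against 5.78, 5.85 and 5.77. Replicate 3 exceeded the mean of the other wild type arrays by 0.86 for SCD, 0.84 for ABCG1, 0.73 for SREBF1, 0.47 for MYLIP and 0.38 for ABCA1. Of the 6 genes other than the 3 in which the pattern was noticed, 2 had an excess of at least 0.3. Over all 19775 genes, 887 (4.49%) had such an excess. The remaining genes had a smaller excess or none: NR1H3, LPCAT3, SMPDL3A and PLTP read 0.09, 0.05, -0.11 and -1.01. Of these, only NR1H3 had replicate 3 as its highest wild type array. PLTP and SMPDL3A differed between the groups, rising by 4.86 and 1.26 (limma adjusted p = 2.10e-05 and 3.79e-05). NR1H3 fell by 0.33 (adjusted p = 0.00792).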
